A study of Mus musculus with 42 samples.

Results

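The comparison asked whether the response of hippocampal microglia to the 5xFAD genotype differed between germ-free mice given acetate and germ-free mice without it. It was measured for each gene as a difference of differences: 5xFAD minus wild type with acetate, minus 5xFAD minus wild type without acetate. The samples were chosen by tissue, genotype and housing from the sample labels, and they numbered 14 of the 42 in the series. A positive value on the log2 scale means that 5xFAD libraries stood higher against their wild-type libraries with acetate than without it, and it is called the acetate-minus-germ-free difference.

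All 14 samples were microglia of C57BL/6 mice aged 16 weeks and housed germ-free. The groups were 3 wild-type and 3 5xFAD animals without acetate, and 4 wild-type and 4 5xFAD animals given acetate. The labels' treatment protocol gives 8 weeks for a germ-free group of both genotypes, which was taken to be these animals. Cells were sorted as CD11b+CD45lo after density separation, and each library stands for the hippocampus of 1 numbered animal. All of these animals lacked a microbiota, so that the comparison holds no colonised group. Bulk libraries of this kind cannot tell fewer cells of a state apart from less RNA per cell.

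5xFAD mice carry human transgenes with mutations of familial Alzheimer disease, mutant APP among them, driven by the mainly neuronal Thy1 promoter, and deposit amyloid early. Microglia around amyloid lose part of their homeostatic program and take on a disease-associated program in stages, the later of which needs the receptor Trem2. Acetate is a short-chain fatty acid made by gut bacteria. It is taken up by cells and turned into acetyl-CoA, which feeds the TCA cycle, lipid synthesis and protein acetylation.

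Libraries are named below by group and animal number as in the labels (GF germ-free, GFA germ-free with acetate). Total counts were 15060925 to 22532410 per library. The number of genes with a count was 17750 in GF_WT_530 and 16607 in GFA_WT_518, against 19142 to 20031 in the other 12 libraries. Microglial identity genes were abundant throughout, with Cx3cr1 at 5610 to 9640 CPM (a gene's counts relative to its library's total, on the usual CPM scale). Summed over 13 neutrophil markers the level was 246 CPM in GF_WT_532 and at most 2.65 CPM in the other 13 libraries. Mouse App stood at 141 to 255 CPM over the 14 libraries, and Thy1 had at most 4 counts in any library. The transgenes are human and neuronal, so these levels in sorted microglia do not check the genotype labels.

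No gene passed the test of the acetate-minus-germ-free difference. Of 17063 genes tested with edgeR's quasi-likelihood test, 0 (0%) had an adjusted p under 0.05, and 905 (5.3%) had an unadjusted p under 0.05. Of these 905, the difference was positive in 417 (2.44% of genes tested) and negative in 488 (2.86%). The value was above 0 in 8711 genes (51.1%), with a median of 0.01 over all genes. limma-voom with sample quality weights also called 0 genes, and DESeq2 called 7. The width of the intervals sets what could be seen: the median half-width of the 95% confidence interval was 0.40 on the log2 scale for the 2382 genes with a group mean over 100 CPM, 1.14 for those at 5 to 20 CPM and 4.23 for those under 1 CPM.

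The genotype effects themselves, each from its own animals, were related across genes, more closely among genes of higher level. Over all 17063 genes tested, Pearson's r between the effect without acetate and the effect with it was 0.248, and Spearman's rho was 0.245. Across 10936 genes averaging 5 CPM or more in a group, r was 0.654 and rho was 0.388. These are descriptions across genes, which are not independent replicates, and the fit shares 1 estimate of spread. The 5xFAD libraries lay wholly above the wild-type libraries in both conditions in 382 genes (2.24%) and wholly below in both in 175 (1.03%). They lay apart in opposite directions in 13 genes (0.0762%), of which 6 were above with acetate and below without, and 7 the reverse.

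**Figure D1:**
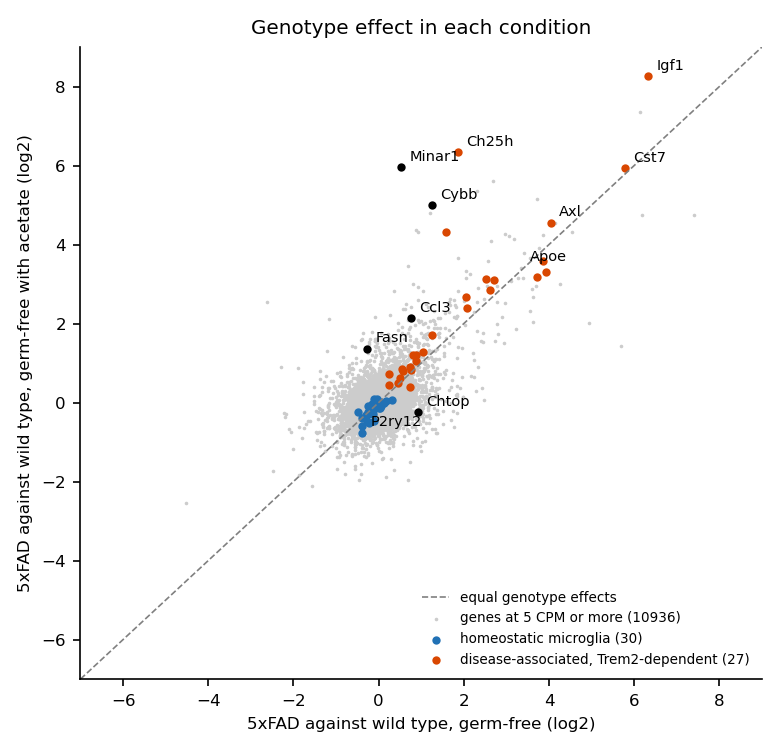
Each point is a gene averaging 5 CPM or more in a group (10936 genes, 9 of them outside the axes), with its fitted 5xFAD effect without acetate on the x axis and with acetate on the y axis, both in log2. Most disease-associated genes (orange) run along the line of equal effects, with Ch25h, Fabp5 and Igf1 above it. Homeostatic genes (blue) lie near 0, and the black points are Minar1, Cybb, Ccl3, Fasn and Chtop.

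Disease-associated genes of the Trem2-independent stage had similar 5xFAD estimates in both conditions. All 8 had 5xFAD libraries wholly above wild-type libraries with and without acetate, beside 2.24% of all genes tested. Apoe, the chief apolipoprotein of the brain, was at 583, 344 and 719 CPM in germ-free wild-type and 3890, 5830 and 7050 CPM in germ-free 5xFAD libraries. With acetate it was at 482, 500, 537 and 750 CPM in wild-type and 4350, 5570, 6830 and 7480 CPM in 5xFAD libraries. The genotypes were far apart in each condition, and the 5xFAD ranges of the conditions overlapped. The effect was 3.42 (SE 0.50) on the log2 scale with acetate and 3.35 (SE 0.57) without, a difference of 0.07 with a 95% interval from -1.37 to 1.51 (adjusted p = 1).

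The narrower intervals in this stage came from abundant lysosomal and adaptor genes. For the protease gene Ctsd, whose product degrades proteins in lysosomes, the difference was 0.07 (95% interval -0.31 to 0.45), with effects of 0.96 with acetate and 0.89 without. Ctsb, another lysosomal protease, gave -0.05 (-0.49 to 0.39). Tyrobp, the signalling adaptor of Trem2, gave 0.08 (-0.54 to 0.70), B2m, the light chain of MHC class I, 0.09 (-0.50 to 0.68), and Fth1, the ferritin heavy chain, 0.15 (-0.33 to 0.62). The median over the 8 was 0.08, beside 0.01 over all genes, and 0 of 8 had an unadjusted p under 0.05, against 5.3% of all genes. The sign of this median rested on single libraries: it was -0.06, with 1 of 8 positive, without GF_FAD_531, and 0.21, with 8 of 8 positive, without GF_FAD_526.

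Disease-associated genes of the Trem2-dependent stage had positive 5xFAD estimates in both conditions, and no acetate-minus-germ-free difference among them passed the test. The estimates ranged from small, as for Trem2 (0.44 with acetate and 0.25 without) and the lysosomal glycoprotein gene Cd68 (0.50 and 0.45), to large, as for Cst7 (5.94 and 5.79). Of 29 members, all had a positive estimate in each condition, and 25 had 5xFAD libraries wholly above wild-type libraries in both. Of all 17063 genes tested, 8540 had a positive estimate with acetate and 8460 without, and 382 (2.24%) lay wholly above in both. The acetate-minus-germ-free difference was positive in 24 of the 29, with a median of 0.25 beside 0.01 over all genes, and the median was 0.14 without GF_WT_530 and 0.38 without GF_FAD_526. 1 of the 29 (Ch25h) had an unadjusted p under 0.05, which is 3.45% beside 5.3% of all genes.

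Cst7, an inhibitor of lysosomal proteases and a standard marker of this state, was at 4.33, 10.2 and 11.1 CPM in germ-free wild-type and 356, 455 and 602 CPM in germ-free 5xFAD libraries. Under acetate the levels were 7.93, 9.94, 11 and 11.6 CPM in wild-type and 468, 589, 628 and 791 CPM in 5xFAD libraries. Its 5xFAD ranges overlapped between conditions, as did its wild-type ranges. The effects were 5.94 (SE 0.71) with acetate and 5.79 (SE 0.81) without, a difference of 0.15 (95% interval -1.76 to 2.06).

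The receptors and secreted factors of this stage gave differences of both signs, each with an interval that held 0. Trem2, the lipid-sensing receptor, gave 0.18 (-0.17 to 0.53), Axl, a receptor for apoptotic cells, 0.51 (-1.04 to 2.06), and Clec7a, a beta-glucan receptor, 0.40 (-1.89 to 2.69). Itgax, the CD11c integrin, gave -0.53 (-2.52 to 1.46) and Lpl, a lipase that releases fatty acids from lipoproteins, -0.62 (-2.55 to 1.32). Csf1, a microglial growth factor, gave 0.64 (-0.81 to 2.10), and Spp1, osteopontin, 0.61 (-2.06 to 3.29). Of the 27 members with a group mean of at least 5 CPM, 26 had an interval that held 0, and in 11 the interval lay within 1 log2 unit on either side of 0.

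**Figure D2:**
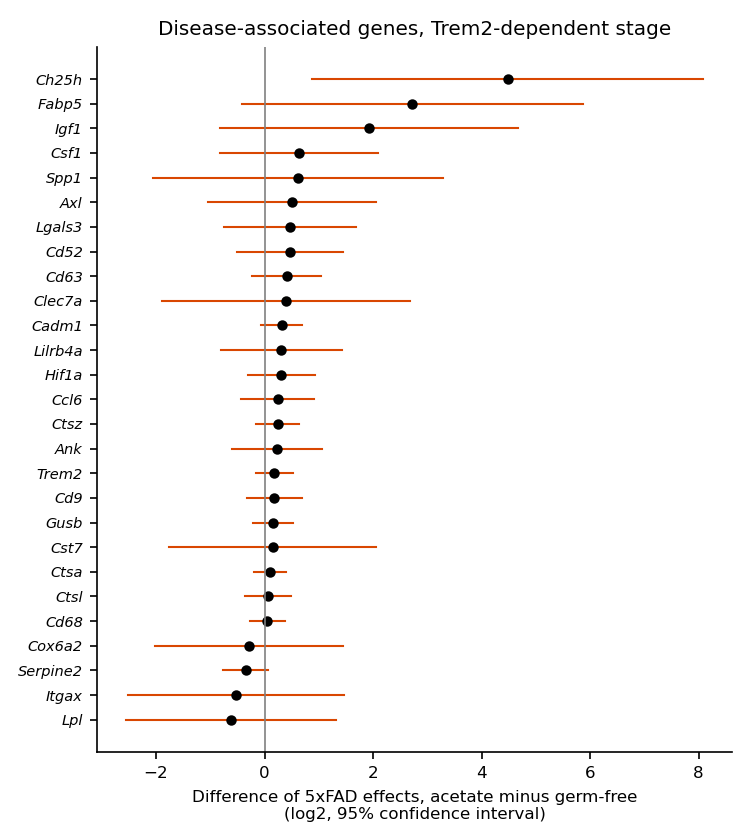
Acetate-minus-germ-free difference (point) and 95% confidence interval (line) on the log2 scale for the 27 Trem2-dependent disease-associated genes with a group mean of at least 5 CPM, ordered by value. Ch25h is the member whose interval (0.88 to 8.08) leaves out 0.

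Ch25h and Igf1 had the largest estimates among those 27 together with Fabp5, and each rested on wild-type levels near 0. Ch25h, which makes the oxysterol 25-hydroxycholesterol, was at 0, 1.45 and 4.25 CPM in germ-free wild-type and 5.30, 6.28 and 9.06 CPM in germ-free 5xFAD libraries. In acetate-treated mice it stood at 0, 0, 0.513 and 0.673 CPM in wild-type and 19.1, 19.5, 23.9 and 30.6 CPM in 5xFAD libraries. All 4 acetate 5xFAD libraries lay above all 3 germ-free 5xFAD libraries. The difference was 4.48 (SE 1.73, adjusted p = 0.906), and it was 3.07 without GF_WT_532, the library with neutrophil transcripts. Ch25h lies across Gm26902 on the opposite strand in the mouse annotation, and whether counting used strand is not given in the sources used here.

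Igf1, a growth factor, was at 0.103, 0.363 and 2.32 CPM in germ-free wild-type and 53.1, 62.1 and 103 CPM in germ-free 5xFAD libraries. The acetate libraries held 0, 0, 0.359 and 0.614 CPM in wild-type and 63.5, 65.9, 87.0 and 90.8 CPM in 5xFAD libraries. The 5xFAD ranges overlapped. Its difference was 1.93 (SE 1.32, adjusted p = 0.977), 0.01 without GF_WT_530, and -0.47 without GF_WT_530 and GFA_WT_518 together.

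**Figure D3:**
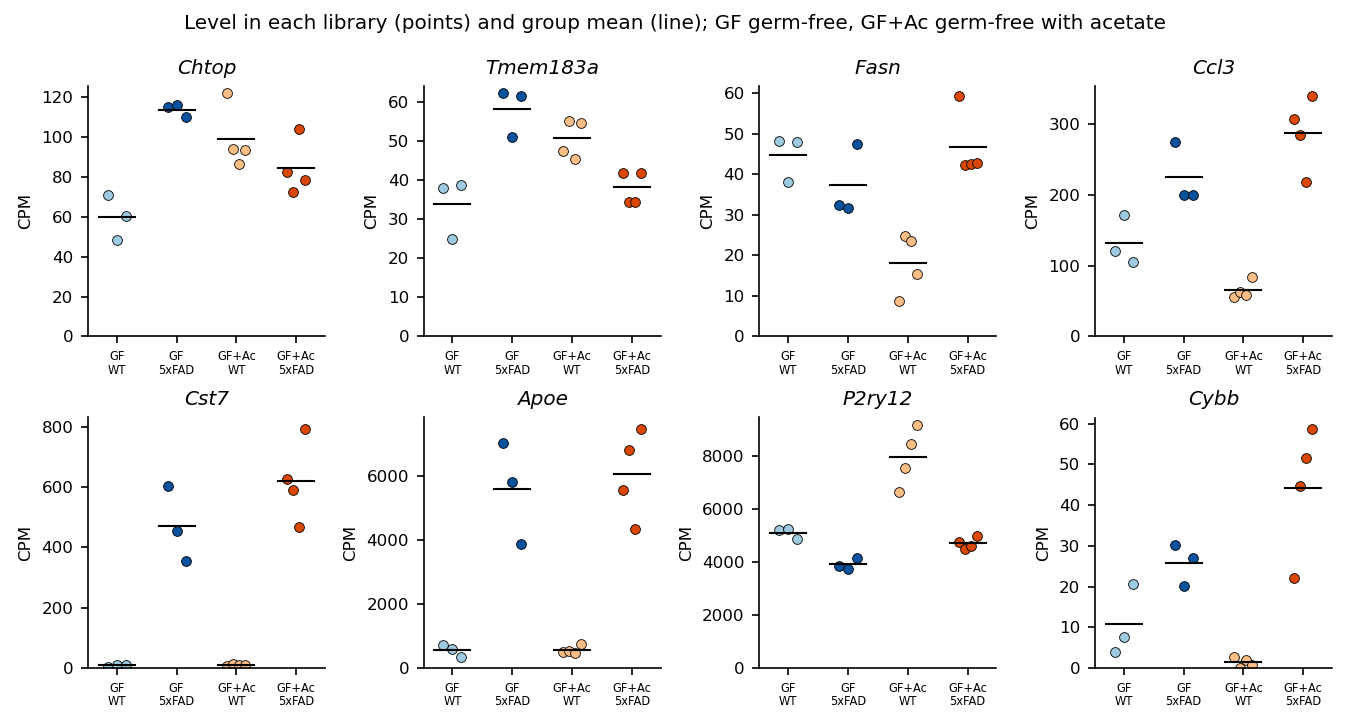
CPM in each library (points) and group mean (line) for 8 genes, by germ-free (GF) and germ-free with acetate (GF+Ac) groups of wild-type (WT) and 5xFAD animals, on linear axes from 0. Cst7 and Apoe separate the genotypes similarly in both conditions. The genotype order of the group means of Chtop and Tmem183a turns between conditions, with overlapping acetate groups for Chtop.

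Homeostatic microglial genes showed differences close to 0 with narrow intervals. Of the 30 members, 6 had a positive and 24 a negative value, and the median was -0.05 beside 0.01 over all genes. Without GF_FAD_526 the positive members numbered 13 and the median was -0.01, and without GF_WT_532 the median was -0.11. All 30 had a 95% interval within 1 log2 unit on either side of 0, with a median half-width of 0.33. 1 of the 30 (P2ry12) had an unadjusted p under 0.05, which is 3.33% beside 5.3% of all genes.

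P2ry12, the ADP receptor that guides microglial processes, was at 4870, 5200 and 5230 CPM in germ-free wild-type and 3730, 3850 and 4140 CPM in germ-free 5xFAD libraries. With acetate it was at 6650, 7520, 8460 and 9170 CPM in wild-type and 4490, 4590, 4750 and 4970 CPM in 5xFAD libraries. The 5xFAD libraries were lower in both conditions with no overlap, and the acetate wild-type libraries were the highest of the 14. The effects were -0.76 (SE 0.11) with acetate and -0.39 (SE 0.12) without, a difference of -0.37 with a 95% interval from -0.71 to -0.04 (adjusted p = 0.912). On the linear scale the 5xFAD level was 0.591 of wild type with acetate and 0.766 without.

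The other identity genes gave values nearer to 0, though only slightly for Tgfbr1 at -0.35 (95% interval -0.81 to 0.11). Slc2a5 gave -0.28 (-0.66 to 0.09). Cx3cr1, the fractalkine receptor, had effects of -0.39 in each condition and a difference of 0.00 (95% interval -0.31 to 0.30). Tmem119, a microglial surface marker, gave -0.14 (-0.48 to 0.20), and Csf1r, the receptor microglia need to survive, -0.13 (-0.46 to 0.19). Gpr34, a lysophospholipid receptor, gave -0.21 (-0.53 to 0.11) and P2ry13, a relative of P2ry12, -0.21 (-0.59 to 0.17). P2ry12 lies across Med12l on the opposite strand, with the same limit on counting as for Ch25h.

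**Figure D4:**
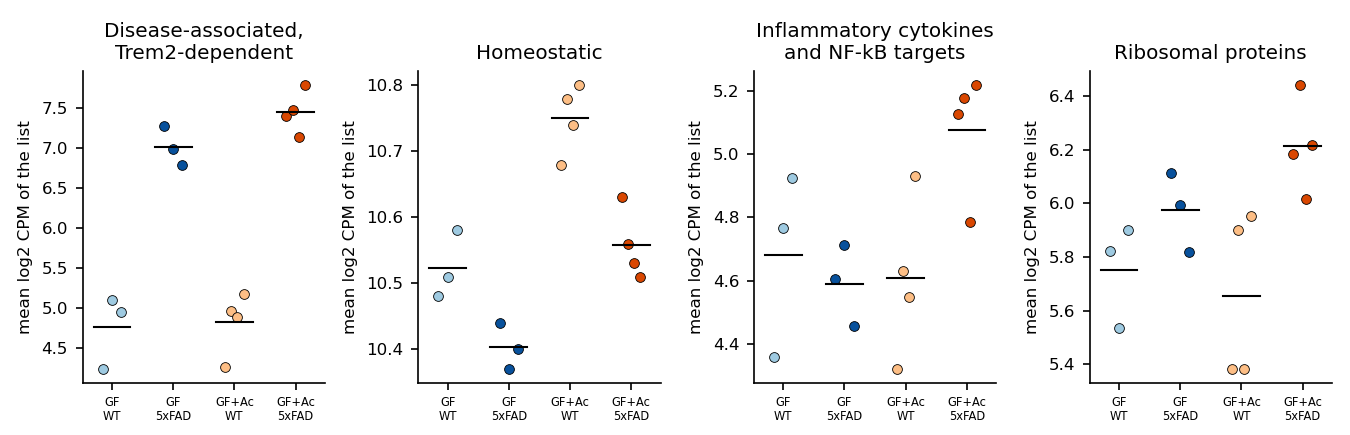
Mean log2 CPM over the genes of 4 lists in each library (points) and group mean (line), by germ-free (GF) and germ-free with acetate (GF+Ac) groups. The disease-associated list stands at 6.79 to 7.27 in germ-free 5xFAD and 7.13 to 7.78 in acetate 5xFAD libraries, and the axes do not start at 0.

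The chemokine genes Ccl3 and Ccl4 had larger 5xFAD estimates with acetate than without, and neither difference passed the test. Ccl3, which draws monocytes and T cells, was at 105, 121 and 171 CPM in germ-free wild-type and 200, 200 and 274 CPM in germ-free 5xFAD libraries. Under acetate the levels were 56.1, 58.2, 62.2 and 83.7 CPM in wild-type and 218, 284, 307 and 339 CPM in 5xFAD libraries. Genotypes did not overlap in either condition, and the acetate wild-type libraries were the lowest. The effects were 2.14 (SE 0.25) with acetate and 0.76 (SE 0.28) without, a difference of 1.38 (SE 0.37, 95% interval 0.61 to 2.15, adjusted p = 0.791), a ratio of 2.61 between the folds.

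Ccl4, its neighbour in function, was at 47.3, 82.2 and 105 CPM in germ-free wild-type and 80.0, 86.1 and 113 CPM in germ-free 5xFAD libraries, which overlapped. In acetate-treated mice it stood at 42.6, 53.1, 61.9 and 74.0 CPM in wild-type and 124, 183, 188 and 192 CPM in 5xFAD libraries, which did not. The difference was 1.32 (SE 0.44, adjusted p = 0.895). Ccl3 and Ccl4 are similar in sequence, and reads shared between them could have been split.

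Among all 30 tested inflammatory cytokine and NF-kB genes, 4 had an unadjusted p under 0.05 with a positive value and 1 with a negative value, together 16.7% beside 5.3% of all genes. The positive ones were Ccl3, Ccl4, Cxcl10 and Il1rn and the negative one was Cd86; Il1rn and Cd86 are named here after their values were seen. Cxcl10, a T cell chemokine, stood at or under 12.7 CPM in every library, and its difference of 5.16 had a 95% interval from 0.89 to 9.43. The list median was 0.18, with 19 of 30 positive.

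Interferon-response genes had 5xFAD effects in both conditions that varied widely from animal to animal. The difference was positive in 25 of 34 (73.5% beside 51.1% of all genes), with a median of 0.54 beside 0.01. At an unadjusted p under 0.05 there were 2 positive members and 1 negative member (8.82% beside 5.3% of all genes). The median genotype effect was 2.16 with acetate and 1.44 without. Ifit3, which binds viral RNA complexes, was at 10.4, 18 and 50.7 CPM in germ-free 5xFAD and 19.5, 27.2, 45.6 and 78.9 CPM in acetate 5xFAD libraries, so that the ranges overlapped. Its difference was 0.24 (95% interval -1.39 to 1.86), and Ifitm3, a membrane protein that blocks viral entry, gave -0.24 (-2.00 to 1.53). The cytosolic RNA sensor Ifih1 gave 0.99 (0.02 to 1.96, adjusted p = 0.934). The list median moved between 0.31 without GF_FAD_531 and 0.95 without GF_FAD_527.

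Antigen presentation genes gave a median of 0.23 over 19 of MHC class I and 0.32 over 12 of MHC class II, beside 0.01 over all genes. Positive members numbered 15 of class I (78.9%) and 10 of class II (83.3%), beside 51.1% of all genes. At an unadjusted p under 0.05 there were 2 of the 19 (10.5%), both negative, and 0 of the 12, beside 5.3% of all genes. Without GF_WT_532 these medians were 0.08 and 0.14. Canx and Erap1, the chaperone and the peptidase that prepare class I molecules and their peptides, had unadjusted p under 0.05 with negative values of -0.34 and -0.53 (adjusted p = 0.909 and 0.912). H2-Ab1, the class II beta chain, was at 4.34, 10.7 and 10.9 CPM in germ-free wild-type and 16.0, 19.6 and 19.9 CPM in germ-free 5xFAD libraries. The acetate libraries held 4.72, 11.6, 13.3 and 17.1 CPM in wild-type and 34.8, 39.3, 40.0 and 73.8 CPM in 5xFAD libraries. The acetate 5xFAD libraries lay above all others, and the difference was 0.92 (95% interval -0.71 to 2.55, adjusted p = 0.994). Cd74, the class II invariant chain, gave 0.35 (-1.66 to 2.36).

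Markers of border macrophages, which also express class II, were low, and their summed level reached its highest values in acetate 5xFAD libraries. Summed over 7 markers they stood at 10.3 to 29.4 CPM there, against 0.942 to 10.2 CPM in acetate wild-type, 1.97 to 9.74 CPM in germ-free wild-type and 3.89 to 10.8 CPM in germ-free 5xFAD libraries. Cd163 and Lyve1 were at 0 in both germ-free groups. Of the 5 markers tested, 2 had a positive and 3 a negative difference, with a median of -0.68 and 0 at an unadjusted p under 0.05, and the value of Cd163 among the positive ones rests on groups at 0 and has no usable interval. Mrc1, the mannose receptor, gave a difference of 2.13 (95% interval -0.09 to 4.34, adjusted p = 0.944). The negative ones, named after their values were seen, were Pf4 at -1.17 (-3.71 to 1.36), Cbr2 at -1.14 (-4.59 to 2.31) and F13a1 at -0.68 (-5.80 to 4.44). In germ-free wild-type libraries Pf4 was at 0 and F13a1 at 0 to 0.0518 CPM, so the log2 values of these genes rest on a baseline at or near 0. Pf4 stood at 0.47 to 0.958 CPM in germ-free 5xFAD libraries. Cbr2 stood at 0.564 to 1.34 CPM in acetate wild-type and 0 to 0.981 CPM in acetate 5xFAD libraries, whereas Pf4 stood at 0 to 0.223 and 2.02 to 4.96 CPM there. The gate on low CD45 is meant to leave out such cells, which carry more CD45. The part of these cells in the class II values was not tested.

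Fasn, fatty acid synthase, which builds palmitate from acetyl-CoA, had the second smallest p among positive named genes. It was at 38.0, 47.8 and 48.1 CPM in germ-free wild-type and 31.7, 32.5 and 47.5 CPM in germ-free 5xFAD libraries, which overlapped. With acetate it was at 8.76, 15.5, 23.4 and 24.8 CPM in wild-type and 42.3, 42.5, 42.8 and 59.2 CPM in 5xFAD libraries, which did not. The 4 acetate wild-type libraries were the lowest of the 14. The effects were 1.37 (SE 0.28) with acetate and -0.26 (SE 0.32) without, a difference of 1.63 (SE 0.43, 95% interval 0.75 to 2.51, adjusted p = 0.716).

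Other genes of acetate transport and acetyl-CoA use did not share one direction. Of 13 tested, 7 were positive, the median was 0.01 (-0.04 without GFA_FAD_521), and Fasn and Slc25a1 had an unadjusted p under 0.05 (15.4% beside 5.3% of all genes). Slc25a1, the mitochondrial citrate exporter, gave 0.55 (95% interval 0.05 to 1.06), and Acaca, the acetyl-CoA carboxylase ahead of Fasn, 0.64 (-0.36 to 1.65). Acss1 and Acss2, the mitochondrial and the nuclear-cytosolic acetyl-CoA synthetases, gave 0.05 (-0.43 to 0.53) and 0.37 (-1.34 to 2.07). Slc16a1, a monocarboxylate transporter, gave 0.51 (-0.76 to 1.79).

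Genes of the TCA cycle gave small values of both signs. Of 27 tested, 17 were positive, the median was 0.06, and 4 (14.8% beside 5.3% of all genes) had an unadjusted p under 0.05, in 2 cases positive and in 2 negative. The median was 0.01 without GF_FAD_531 and 0.16 without GF_FAD_526. Idh2, the mitochondrial isocitrate dehydrogenase, gave 0.42 (95% interval 0.11 to 0.74), and Dlst and Dld, subunits of the 2-oxoglutarate dehydrogenase complex, 0.46 (0.07 to 0.85) and -0.44 (-0.85 to -0.03). The 4 subunits of succinate dehydrogenase, complex II, gave -0.08 for Sdha (-0.42 to 0.25), 0.05 for Sdhb (-0.29 to 0.38), 0.32 for Sdhc (-0.15 to 0.79) and 0.28 for Sdhd (-0.11 to 0.68). The adjusted p of all of these was at least 0.895.

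Cholesterol export genes held 3 positive members and no negative one at an unadjusted p under 0.05 among 17 tested. The 3 were Abca1, Abcg1 and Ch25h (17.6% beside 5.3% of all genes for both directions together). The list median was 0.07, and -0.01 without GFA_WT_524. Abcg1, which moves cholesterol to HDL, was at 296, 300 and 322 CPM in germ-free wild-type and 207, 207 and 223 CPM in germ-free 5xFAD libraries. Under acetate the levels were 191, 194, 211 and 278 CPM in wild-type and 208, 224, 226 and 233 CPM in 5xFAD libraries. The germ-free wild-type libraries were above all others, and the acetate groups overlapped. The effects were 0.03 (SE 0.11) with acetate and -0.53 (SE 0.13) without, a difference of 0.56 (SE 0.17, adjusted p = 0.885). Abca1, which loads lipid onto ApoE, gave 0.49 (95% interval 0.10 to 0.89, adjusted p = 0.906).

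Complement genes had 2 positive and 2 negative members at an unadjusted p under 0.05 among 13 tested (30.8% beside 5.3% of all genes), so that no common direction was seen. C1qa, a chain of the recognition molecule C1q, gave 0.41 (95% interval 0.04 to 0.79) and C4b 3.50 (0.34 to 6.67). The value of C4b turned to -1.54 without GF_WT_532, the library with neutrophil transcripts. Itgam, the CD11b chain of complement receptor 3, gave -0.48 (-0.95 to -0.02). Lysosomal and phagocytic genes were positive in 28 of 35 (80% beside 51.1% of all genes), with a median of 0.07. Without GF_FAD_531 the positive members numbered 18 and the median was 0.01, and without GF_FAD_526 they numbered 31 and it was 0.18.

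Ribosomal protein genes had nearly all their values on one side of 0, with small sizes. Of 76 tested, 73 were positive (96.1% beside 51.1% of all genes), the median was 0.33, and 4 had an unadjusted p under 0.05 with a positive value (5.26% beside 5.3% of all genes for both directions together). Rps4x gave 0.58 (95% interval 0.07 to 1.10, adjusted p = 0.912), with Rpl27 at 0.70 and Rpl18 at 0.49. The ribosomal share of counts was 0.601% to 0.789% in acetate 5xFAD libraries, 0.397% to 0.567% in acetate wild-type, 0.550% to 0.651% in germ-free 5xFAD and 0.458% to 0.582% in germ-free wild-type libraries. All of them were read from the same 14 libraries, so their number is not a number of independent observations.

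Cell-cycle genes, at low levels, had a negative median that turned with 1 library. Of 31 tested, 14 were positive and the median was -0.22, but without GF_WT_529 it was 0.22. Mki67, a marker of cycling cells, was at 0, 0.155 and 0.259 CPM in germ-free wild-type and 4.69, 7.31 and 11.1 CPM in germ-free 5xFAD libraries. In acetate-treated mice it stood at 0, 2.01, 5.79 and 10.7 CPM in wild-type and 4.97, 7.42, 12.8 and 24.9 CPM in 5xFAD libraries. The genotypes overlapped with acetate and did not without it, and the difference was -4.26 (SE 1.54, adjusted p = 0.895).

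**Figure D5:**
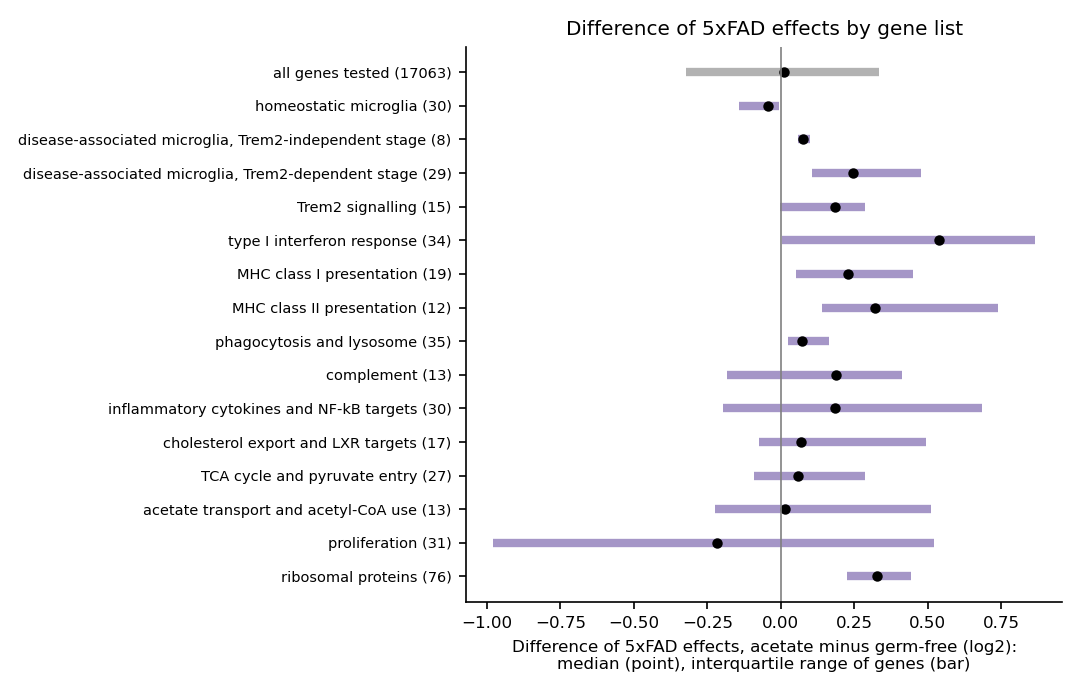
Median acetate-minus-germ-free difference (point) and interquartile range of genes (bar) on the log2 scale for all genes tested and for 15 gene lists, with the number of genes in brackets. The medians run from -0.22 for proliferation to 0.54 for the interferon response, beside 0.01 for all genes.

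Among named genes the smallest p-values belonged to those with the opposite pattern, whose 5xFAD estimate was positive without acetate and negative with it. Chtop, a chromatin-bound protein that takes part in mRNA export, was at 48.6, 60.6 and 70.9 CPM in germ-free wild-type and 110, 115 and 116 CPM in germ-free 5xFAD libraries. The acetate libraries held 86.7, 93.8, 93.9 and 122 CPM in wild-type and 72.4, 78.5, 82.3 and 104 CPM in 5xFAD libraries. The germ-free wild-type libraries were the lowest of the 14, and the acetate groups overlapped. The effects were -0.23 (SE 0.13) with acetate and 0.92 (SE 0.15) without, a difference of -1.15 (SE 0.20, 95% interval -1.57 to -0.74, adjusted p = 0.131). DESeq2 gave -1.16 with an adjusted p of 0.000331. In the edgeR test the adjusted p was 0.0496 without GF_WT_529 and 0.0266 without GFA_FAD_521. These libraries held the highest values of their groups, at 70.9 and 104 CPM. Chtop did not pass with any other library left out, nor in the other edgeR settings or limma-voom.

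Tmem183a, which encodes a membrane protein, was at 24.8, 38.0 and 38.8 CPM in germ-free wild-type and 50.9, 61.4 and 62.2 CPM in germ-free 5xFAD libraries. With acetate it was at 45.5, 47.4, 54.6 and 55.1 CPM in wild-type and 34.3, 34.5, 41.8 and 41.9 CPM in 5xFAD libraries. The genotypes did not overlap in either condition, and their order turned. The difference was -1.19 (SE 0.23, 95% interval -1.67 to -0.71, adjusted p = 0.31), with effects of -0.41 and 0.78, and DESeq2 gave an adjusted p of 0.00222.

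Atp11b, a phospholipid flippase, was at 45.4, 45.7 and 47.8 CPM in germ-free wild-type and 69.8, 74.4 and 78.9 CPM in germ-free 5xFAD libraries. Under acetate the levels were 55.3, 59.4, 61.7 and 86.4 CPM in wild-type and 44.7, 49.7, 50.6 and 58.1 CPM in 5xFAD libraries, which overlapped. The difference was -1.05 (SE 0.24, adjusted p = 0.71), with an adjusted p of 0.0445 in DESeq2. The other 4 genes that DESeq2 called had group means of at most 4.77 CPM.

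The remaining negative genes by smallest p were Hmbox1 (-0.95), Zfp143 (-0.96), Tbc1d1 (-1.20), Fam98a (-2.11), Washc4 (-0.67), Mfsd4b4 (-1.69) and Kbtbd7 (-1.21), with adjusted p of 0.71 to 0.885. In 8 of the 10 negative genes the germ-free wild-type group had the lowest mean, and in 9 of the 10 the genotype effects had opposite signs. Some of these effects were near 0, as without acetate in Hmbox1 (0.03, SE 0.18) and Washc4 (0.13, SE 0.14). Choosing genes by a negative difference itself favours a low mean in this group and opposite signs, so these counts are not a separate result. Mfsd4b4 was the other named gene whose groups stood apart in opposite directions, and it belongs to a family of similar genes among which reads may have been split. Tbc1d1, which regulates glucose transporter traffic, kept a positive effect in both conditions, 0.14 (SE 0.20) with acetate and 1.33 (SE 0.24) without.

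The positive genes by smallest p, beside Fasn and Ccl3, were Minar1, Rnmt, Pusl1, Fam193a, Batf3, Cybb, Cotl1 and Abcg1, with adjusted p of 0.71 to 0.885. In 6 of the 10 the acetate wild-type group had the lowest mean, which choosing genes by a positive difference itself favours. Cybb, the catalytic chain of the phagocyte NADPH oxidase, was at 3.97, 7.70 and 20.7 CPM in germ-free wild-type and 20.2, 27 and 30.2 CPM in germ-free 5xFAD libraries. In acetate-treated mice it stood at 0, 0.808, 1.95 and 2.58 CPM in wild-type and 22.1, 44.6, 51.5 and 58.6 CPM in 5xFAD libraries. The genotypes overlapped without acetate and did not with it. The highest germ-free wild-type value belonged to GF_WT_532, the library with neutrophil transcripts, and Cybb is abundant in neutrophils. The difference was 3.75 (SE 1.13, adjusted p = 0.885), and 2.86 without that library; the part of neutrophils was not tested further.

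Batf3, a transcription factor of dendritic cells, was at 16.4, 35.5 and 36.2 CPM in germ-free wild-type and 10.2, 10.7 and 12.0 CPM in germ-free 5xFAD libraries. The acetate libraries held 18.3, 19.1, 22.3 and 26.7 CPM in wild-type and 12.2, 18.4, 18.6 and 24.3 CPM in 5xFAD libraries, which overlapped. The effects were -0.23 (SE 0.24) with acetate and -1.42 (SE 0.28) without, a difference of 1.19 (SE 0.36). Rnmt, the mRNA cap methyltransferase, gave 0.81 and Cotl1, an actin-binding protein, 0.61. Minar1 gave 5.42 (SE 1.35) at levels of 0 to 13 CPM.

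Fkbp5, a chaperone partner of the glucocorticoid receptor, gave a difference of 0.18 (95% interval -1.35 to 1.72), and Zbtb16, a transcription factor that glucocorticoids raise, gave 0.04 (-2.38 to 2.46). GFA_WT_518 was at 334 CPM for Fkbp5, against 72.5 to 109 CPM in the other acetate wild-type libraries. For Zbtb16 it was at 7.56 CPM, against 0 to 1.17 CPM. Without this library the differences were 0.93 and 2.35. Pik3ip1, also among the fixed marker genes, gave 0.74 (-0.60 to 2.09), and -0.14 without GF_WT_529.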

How the data were processed

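The deposited table holds raw counts of reads per gene made by the authors. The submitters' processing notes name STAR 2.5.2b, featureCounts 1.5.1 and build GRCh38. That build is human, although the symbols in the table are mouse symbols. No coordinates are therefore given, and a mouse annotation served only for names and overlaps. 93.5% of 53546 symbols matched it.

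The main test used edgeR 4.0.16 in R 4.3.3 on all 22 hippocampus libraries in 6 groups, which share 1 estimate of spread: filterByExpr (minimum count 10; 17063 genes kept), TMM scaling, robust quasi-likelihood F-test of the contrast of contrasts, two-sided, Benjamini-Hochberg over all genes, threshold adjusted p under 0.05. Levels are TMM-scaled CPM, and intervals are 95%. limma 3.58.1 (voom) and DESeq2 1.42.0 were alternatives. The fit was tested on simulated data.

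Genes and lists were chosen with earlier results of these data known, so lists are described without a test. Named were the 10 genes of smallest p per direction with a group mean of at least 5 CPM (predicted models left out), up to 3 per list, and fixed marker genes. Some genes the rule selects are not reported here.

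Replicates are separate animals per the labels; chi-square per degree of freedom between 18 replicate pairs was 16.34 to 56.11, above sampling noise. The p-values reflect the spread between the animals of all 22 hippocampus libraries in the fit, with information shared across genes, and no wider variation.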

Additional observations from a re-analysis of the deposited data

Results flagged for a closer look

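In 226 groups of 4 acetate libraries examined (93 named genes, 5 library measures and 15 list levels in both genotypes), 20 (8.85%) held a library whose gap to the nearest other was large for the group's range, where chance alone flags about 1 in 20 groups. GFA_WT_518 accounted for 7 of the 20. It had 16607 genes with a count, Ctsb at 3180 CPM, Fkbp5 at 334 CPM, Zbtb16 at 7.56 CPM and Cd74 at 81.7 CPM, and mean log2 CPM of 6.17 over Trem2 signalling and 1.84 over the interferon response. GFA_WT_525 stood apart for Cxcl10 (3.43 CPM). GFA_WT_523 stood apart for Ifi207 (1.67 CPM) and for the TCA cycle list (mean log2 CPM 6.11), and GFA_WT_524 for H2-DMa (167 CPM), Abca1 (444 CPM) and the MHC class II list (mean log2 CPM 4.13).

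Among acetate 5xFAD libraries, GFA_FAD_519 stood apart for Fasn (59.2 CPM) and GFA_FAD_522 for Tbc1d1 (36.6 CPM). GFA_FAD_520 stood apart for H2-Ab1 (73.8 CPM) and Rpl27 (51.9 CPM), and GFA_FAD_521 for Ctsd (13800 CPM), Ccl4 (124 CPM) and Tyrobp (1390 CPM). The groups without acetate have 3 libraries each and were not examined in this way.

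In Tmem183a and Mfsd4b4 every 5xFAD library lay below every wild-type library with acetate and above every one without it. Groups apart in opposite directions were seen in 13 of 17063 genes tested (0.0762%), and whether this exceeds chance was not tested. The acetate-minus-germ-free differences of -1.19 and -1.69 on the log2 scale were tested with edgeR and did not pass (adjusted p = 0.31 and 0.885).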

How the results depend on the processing

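The count of genes called was 0 with edgeR with RLE scaling, with all genes that had a count, with genes averaging 5 CPM or more, with only the 4 groups, and without GF_WT_530 and GFA_WT_518 together, 0 with limma-voom, and 7 with DESeq2. With each library left out it was 0 to 2: Chtop without GF_WT_529 or GFA_FAD_521, and Dcun1d4 and Slc39a4 without GF_WT_532. Genes at an unadjusted p under 0.05 numbered 1631 of 30601 without a filter and 540 of 10413 with the stricter one. Genes apart in opposite directions numbered 7 with the stricter filter and 19 to 47 with a library left out, where smaller groups separate more often.

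The differences of the 20 named genes with the smallest p kept their sign in every alternative. Choosing genes by small p in the same libraries itself favours a kept sign, so this is not a separate result. Over 93 named genes and 1946 values, 71 had another sign than the reported one, in 26 genes, and the cause was not tested. With limma-voom these were Fabp5 (-0.34), Apoe (-0.016), Cst7 (-0.11), Spp1 (-1.73) and Ctsb (0.026), and with only the 4 groups Cx3cr1 (0.0022) and Olfml3 (0.0026). Without GF_WT_530 and GFA_WT_518 they were Fabp5 (-1.71), Apoe (-0.045), Clec7a (-0.59), Cst7 (-0.11), Spp1 (-0.58), Ctsb (0.019), Igf1 (-0.47), Sdha (0.032), Slc16a1 (-0.028) and Ifitm3 (0.52). With 1 library left out the ranges that crossed 0 were Ctsb -0.17 to 0.081, Olfml3 -0.14 to 0.12, Sdha -0.19 to 0.015, Zbtb16 -0.74 to 2.35, Sdhb -0.052 to 0.14, Acss1 -0.090 to 0.18, Ctsd -0.0088 to 0.19, B2m -0.053 to 0.27, Apoe -0.19 to 0.32, Tyrobp -0.10 to 0.21, Cst7 -0.0898 to 0.46, Ifit3 -0.24 to 1.12, Cx3cr1 -0.041 to 0.019, Pik3ip1 -0.14 to 1.16, Fabp5 -1.28 to 3.73, Clec7a -0.18 to 0.999, Spp1 -0.63 to 1.19, Ifitm3 -0.71 to 0.19, C4b -1.54 to 4.21, Gpnmb -0.53 to 6.41, App -0.19 to 0.0094, Cd74 -0.048 to 1.28, Fkbp5 -0.045 to 0.93, Acss2 -0.025 to 1.14. The median of the Trem2-dependent list was 0.14 to 0.38 with 1 library left out and 0.08 to 0.25 in the other alternatives, and that of the ribosomal list 0.23 to 0.43 and 0.32 to 0.35.

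No paired analysis was possible because no animal number occurs in more than 1 of the 4 hippocampus groups. Intervals were widest for genes of low level, with a median half-width on the log2 scale of 1.14 at 5 to 20 CPM, 2.62 at 1 to 5 CPM and 4.23 under 1 CPM; depth itself was not varied.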
